A study of Mus musculus with 24 samples.

Results

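Autophagy encloses part of the cytoplasm in a double membrane, the autophagosome, and delivers it to the lysosome, and mitophagy is the same route taken by mitochondria. A kinase complex around ULK1 starts the process and a lipid kinase complex around BECN1 marks the membrane. ATG2, ATG9 and WIPI proteins then enlarge the membrane, and conjugation enzymes attach LC3 and GABARAP proteins to it. Receptors on the cargo or on the mitochondrial surface bind those proteins. In the brain the pathway is best known for clearing protein aggregates and worn mitochondria from neurons, and urolithin A, formed by gut bacteria from polyphenols of pomegranate and nuts, has been described as a compound that raises mitophagy. The genes described here are 39 core members of this machinery, chosen by name for their function, with earlier results of these data known. All 39 of 39 were found on the array and tested among 35259 features, of which 18566 are genes with a symbol.

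Hippocampal RNA of 24 male mice was hybridised to Agilent one-colour arrays, 1 array per animal, in 6 groups. All animals are labelled as the line B6.Cg-Tg(APPswe,PSEN1dE9)85Dbo/J, and the groups differ in whether they carried its transgenes, a mutant amyloid precursor protein and a mutant presenilin 1, which are driven by a prion protein promoter and lead to amyloid plaques. At the end of treatment these were the non-transgenic WT_CTR (n = 4, genotype - APP - PSEN, water), the transgenic APP-PS1_CTR (n = 3, + APP + PSEN, water) and the transgenic APP-PS1_UA (n = 4, urolithin A). After a washout without gavage they were the non-transgenic WT_WASHOUT (n = 5, water), the transgenic APP-PS1_WASHOUT (n = 3, water) and the transgenic APP-PS1_UA-WASHOUT (n = 5, urolithin A before the washout). Gavage with urolithin A or water began at 2 months of age and ended at 7 months, with a washout of 1 month. Sources differ on age at collection, which is 8 or, after washout, 9 months in the sample labels and 7 months or 1 month more in the description of the design. The dose is 200 mg/kg/day in one source and 20 mg/kg/day in the other. No group here was non-transgenic and treated with urolithin A.

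All levels are log2 signals after subtraction of the array's own 75th percentile, so that 1 unit is a doubling. A change is the mean of one group minus the mean of another, with its standard error (SE) from limma. Genes count as called where the p adjusted over all features (Benjamini-Hochberg) was under 0.05. Each gene was read from its probe with the highest mean signal, and levels are compared between groups and not between genes. In bulk tissue, fewer cells of a type and less RNA per cell cannot be told apart.

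The arrays lay on 3 slides of 8, and the slides were not balanced over the groups. WT_CTR and APP-PS1_CTR shared slide 1 with the first APP-PS1_UA array, while the 3 further APP-PS1_UA arrays shared slide 2 with WT_WASHOUT. Both transgenic washout groups, and only these, were on slide 3. In a principal component analysis, slide 3 separated from the rest on component 1 (47.1% of the variance). Between 63.7% and 76.9% of spots were well above background, and the number of arrays limits the precision. Each of the 39 chosen probes was well above background on all 24 arrays. Neuronal and hippocampal markers (Snap25, Rbfox3, Prox1, Wfs1) were well above background on 24 of 24 arrays. Of 12 choroid plexus markers 0 were called in any contrast, but their mean level ran from -3.13 to 3.31 within APP-PS1_UA alone. Their median change was -2.51 between APP-PS1_UA and APP-PS1_CTR and 1.90 between APP-PS1_CTR and WT_CTR. The part of choroid plexus in the results was not tested.

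The promoters of the genes that the results turn on are shown first, as the 250 bases before the RefSeq start of each gene (build GRCm38.p6, 5′ to 3′ on the strand of the gene). Capitals mark CACGTG, the E-box that transcription factors of the TFEB family read in many autophagy and lysosome genes, and ACGTG or its complement CACGT, the core of hypoxia response elements. Nbr1, Wipi2, Bnip3, Phb2 and Atg9a are shown because they have the smallest p-values among the 39 genes between APP-PS1_WASHOUT and WT_WASHOUT, and Atg3 because it holds the E-box more than once. They lie at chr11:101552404-101552653 (plus strand) for Nbr1 and chr5:142629334-142629583 (plus) for Wipi2. Bnip3 lies at chr7:138909507-138909756 (minus), Phb2 at chr6:124712039-124712288 (plus), Atg9a at chr1:75192011-75192260 (minus) and Atg3 at chr16:45158579-45158828 (plus).
Nbr1: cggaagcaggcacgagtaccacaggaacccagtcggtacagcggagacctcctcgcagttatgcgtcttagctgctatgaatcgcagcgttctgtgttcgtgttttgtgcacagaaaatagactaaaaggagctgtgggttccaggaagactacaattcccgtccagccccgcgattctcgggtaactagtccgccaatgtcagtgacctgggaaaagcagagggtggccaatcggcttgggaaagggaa
Wipi2: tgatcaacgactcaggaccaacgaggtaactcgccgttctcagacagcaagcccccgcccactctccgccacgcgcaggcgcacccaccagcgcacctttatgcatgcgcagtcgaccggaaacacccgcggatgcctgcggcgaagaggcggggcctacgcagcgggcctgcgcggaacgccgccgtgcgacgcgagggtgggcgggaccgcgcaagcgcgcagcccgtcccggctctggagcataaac
Bnip3: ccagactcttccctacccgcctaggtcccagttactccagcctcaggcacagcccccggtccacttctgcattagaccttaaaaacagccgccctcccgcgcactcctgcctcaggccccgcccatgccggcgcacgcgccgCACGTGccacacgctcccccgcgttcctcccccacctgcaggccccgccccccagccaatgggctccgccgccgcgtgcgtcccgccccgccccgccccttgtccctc
Phb2: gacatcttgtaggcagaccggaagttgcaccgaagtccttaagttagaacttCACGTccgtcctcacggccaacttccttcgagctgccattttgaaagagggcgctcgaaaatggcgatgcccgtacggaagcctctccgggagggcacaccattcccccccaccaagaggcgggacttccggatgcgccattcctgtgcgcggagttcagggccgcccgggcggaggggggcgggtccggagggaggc
Atg9a: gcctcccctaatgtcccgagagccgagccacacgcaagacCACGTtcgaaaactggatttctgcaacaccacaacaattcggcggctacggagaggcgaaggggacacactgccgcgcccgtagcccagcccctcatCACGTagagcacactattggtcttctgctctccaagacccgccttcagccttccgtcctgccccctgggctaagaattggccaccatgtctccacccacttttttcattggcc
Atg3: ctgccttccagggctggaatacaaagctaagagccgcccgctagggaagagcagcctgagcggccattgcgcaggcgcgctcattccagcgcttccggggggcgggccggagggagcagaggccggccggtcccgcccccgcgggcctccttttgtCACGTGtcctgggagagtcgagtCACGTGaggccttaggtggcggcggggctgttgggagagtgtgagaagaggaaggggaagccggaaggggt

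Of the 39 genes, 32 had a promoter window in the RefSeq table, 34 windows in all. CACGTG, searched on both strands, was in 4 of the 34 windows (11.8%) and in 6.02% of all 32851 windows of the same length. The genes with it were Bnip3, Atg3, Atg5 and Atg7, and in Atg3 its first base stood 94 and 71 bases before the start. The longer GTCACGTG, which contains the E-box, was in 2 windows (5.88%, Atg3 and Atg7) against 1.85% of all windows. ACGTG, which every E-box also holds, was in 14 of the 34 windows (41.2%) against 16.6% of all windows. The windows of the 39 genes were richer in G and C, with a median of 60.4% against 52.4% of all windows. Of the sequences shown, those of Bnip3, Phb2, Atg9a and Atg3 held ACGTG. Those of Nbr1 and Wipi2 did not, although the second window listed for Nbr1 did.

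The levels of the 39 genes in all 24 arrays are shown as deviations from the mean of each gene. Within groups the SD was 0.14 at the median gene, from 0.08 for Bnip3 to 0.30 for Calcoco1.

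**Figure D1:**
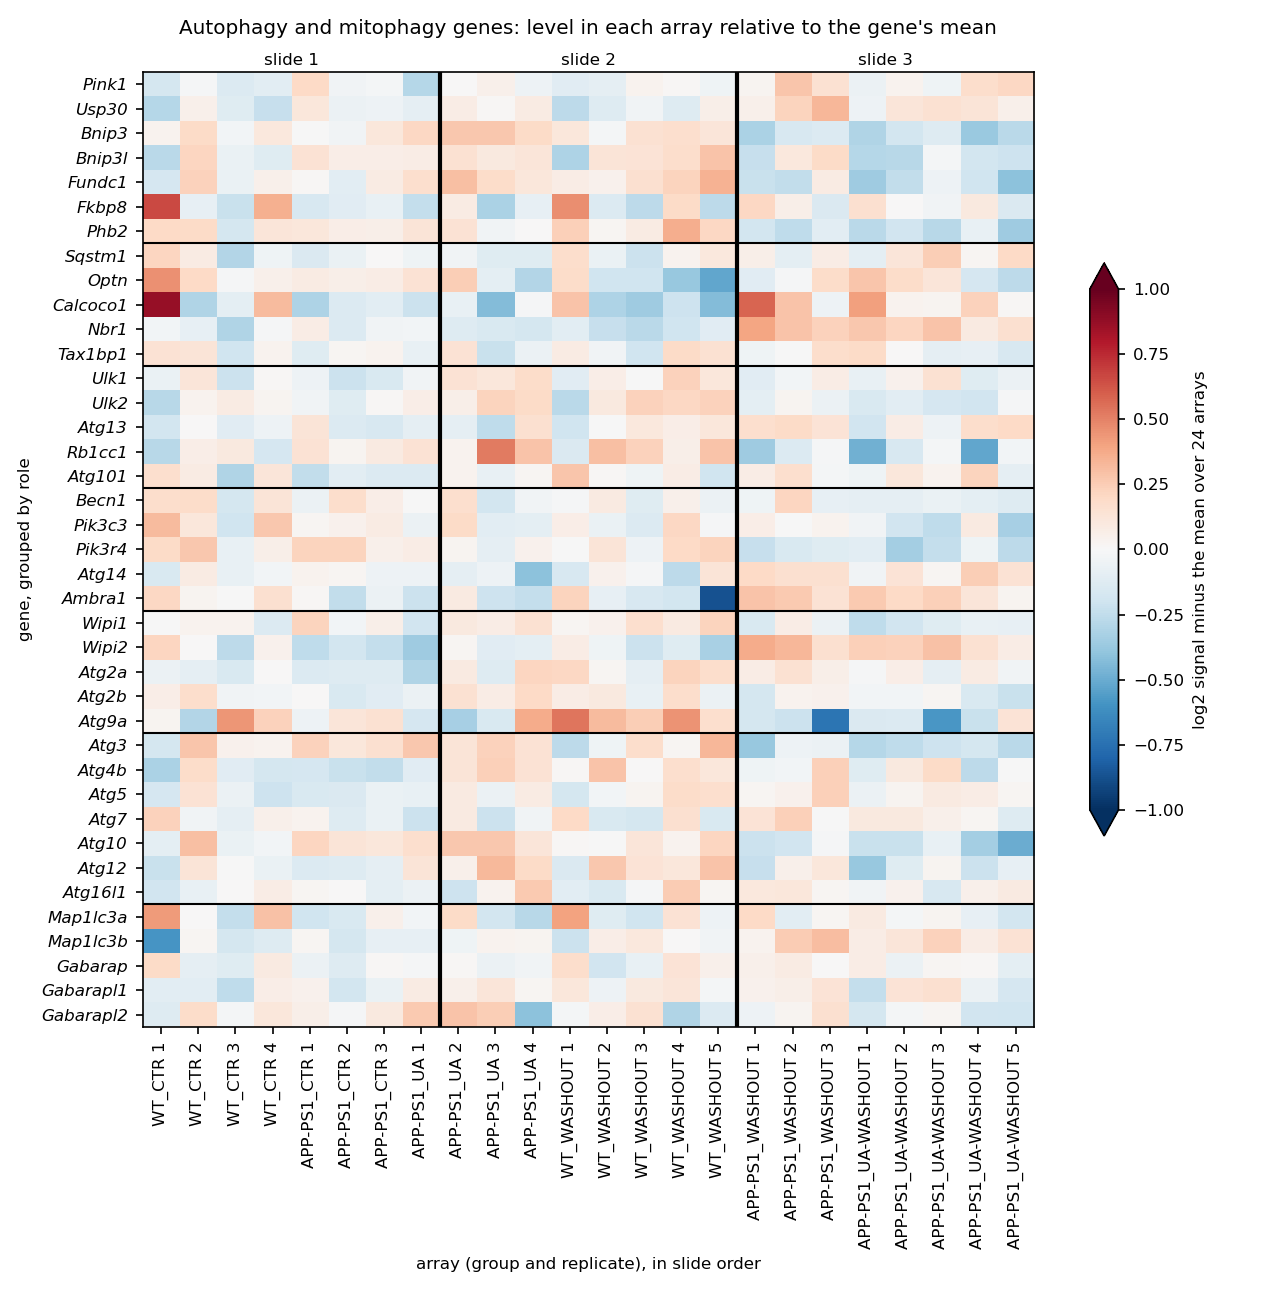
Heat map of the 39 genes (rows, grouped by role, separated by lines) in the 24 arrays (columns, in slide order), with colour for the log2 signal minus the mean of the gene over all arrays. Slide 3, on the right, is lower for Bnip3 and higher for Nbr1 than every array of slides 1 and 2, and most other rows show no block of colour.

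The first question is what urolithin A changed in transgenic mice at the end of treatment. Between APP-PS1_UA and APP-PS1_CTR 0 of the 39 genes were called by limma, as were 0 of all 35259 features (0%). At an unadjusted p under 0.05 there were 4 genes (10.3%), against 7.44% of all features. All 4 had values above 0, from 0.21 to 0.31 on the log2 scale, namely Bnip3, a receptor on the mitochondrial surface induced by hypoxia, Ulk1, the initiating kinase, Atg4b, the protease that trims LC3, and Atg12, the ubiquitin-like protein joined to ATG5. Their smallest adjusted p was 0.637. The median change of the 39 genes was 0.02, beside -0.01 over all features.

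Bnip3 was at 4.51, 4.57, 4.57 and 4.49 in the 4 APP-PS1_UA arrays and at 4.29, 4.26 and 4.41 in the 3 APP-PS1_CTR arrays. The groups did not overlap, and the change was 0.21 ± 0.08 (SE), a fold of 1.16 (limma adjusted p = 0.637). Ulk1 was at 3.79, 3.97, 3.94 and 4.01 in APP-PS1_UA and at 3.77, 3.61 and 3.67 in APP-PS1_CTR. Its change was 0.24 ± 0.10 (SE, limma adjusted p = 0.638), and the lowest treated array stood just above the highest control. A second probe of Ulk1 gave the opposite sign, -0.23, so the gene has no settled direction. Atg4b was at 2.19, 2.43, 2.54 and 2.45 in APP-PS1_UA and at 2.14, 2.08 and 2.05 in APP-PS1_CTR. Its change was 0.31 ± 0.13 (SE, limma adjusted p = 0.638), the largest of the 39 chosen probes, and its second probe gave 0.06. Atg12 was at 3.68, 3.61, 3.88 and 3.75 in APP-PS1_UA and at 3.42, 3.42 and 3.46 in APP-PS1_CTR (limma adjusted p = 0.640).

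In 6 of the 39 genes (15.4%) the treated and control arrays did not overlap, against 11.0% of all features: those 4, the receptor Fundc1 and the kinase Ulk2. Slide moved with this comparison, since 3 of the 4 treated arrays lay on slide 2 and the controls on slide 1. Array row moved with it too, as the same 3 arrays lay in array row 1 and the controls in array row 2. On slide 1 the 1 treated array stood above the mean of the 3 controls by 0.19 for Bnip3, 0.25 for Atg12, 0.11 for Ulk1 and 0.10 for Atg4b. A single array gives no test of these differences.

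By role, 0 of 7 mitophagy receptors and regulators were called, with changes from -0.12 for Pink1, the kinase that marks damaged mitochondria, to that of Bnip3. Of the 5 cargo receptors, which link cargo to LC3 and GABARAP proteins, 0 were called, and the changes lay between -0.09 (Nbr1) and 0.00 (Calcoco1). The 5 subunits of the ULK complex ranged from -0.01 (Atg13) to the value of Ulk1, with 0 called. The 5 genes grouped with the class III PI3-kinase complex lay from -0.15 (Pik3r4) to -0.05 (Ambra1), all below 0 and 0 called. Among the 5 genes of membrane recruitment and lipid transfer the range was -0.14 (Atg9a) to 0.18 (Atg2b), and among the 7 of the conjugation machinery -0.04 (Atg7) to that of Atg4b, with 0 called in either. The 5 LC3 and GABARAP genes, whose products coat the autophagosome, lay between 0.02 (Map1lc3a) and 0.14 (Gabarapl1), with 0 called.

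For the chosen probes, the intervals bound what difference between these groups could have been missed. They do not bound an effect of treatment alone, since slide and array row moved with the comparison. Another probe of Atg2b gave 0.49. The 95% interval of all 39 genes lay within a 1.5-fold change (0.58 on the log2 scale) in either direction, with the widest bounds at -0.54 for Atg9a and 0.58 for Atg4b. The median distance from the estimate to either bound was 0.23. These intervals are for 1 gene at a time, while calls used the p adjusted over all features.

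**Figure D2:**
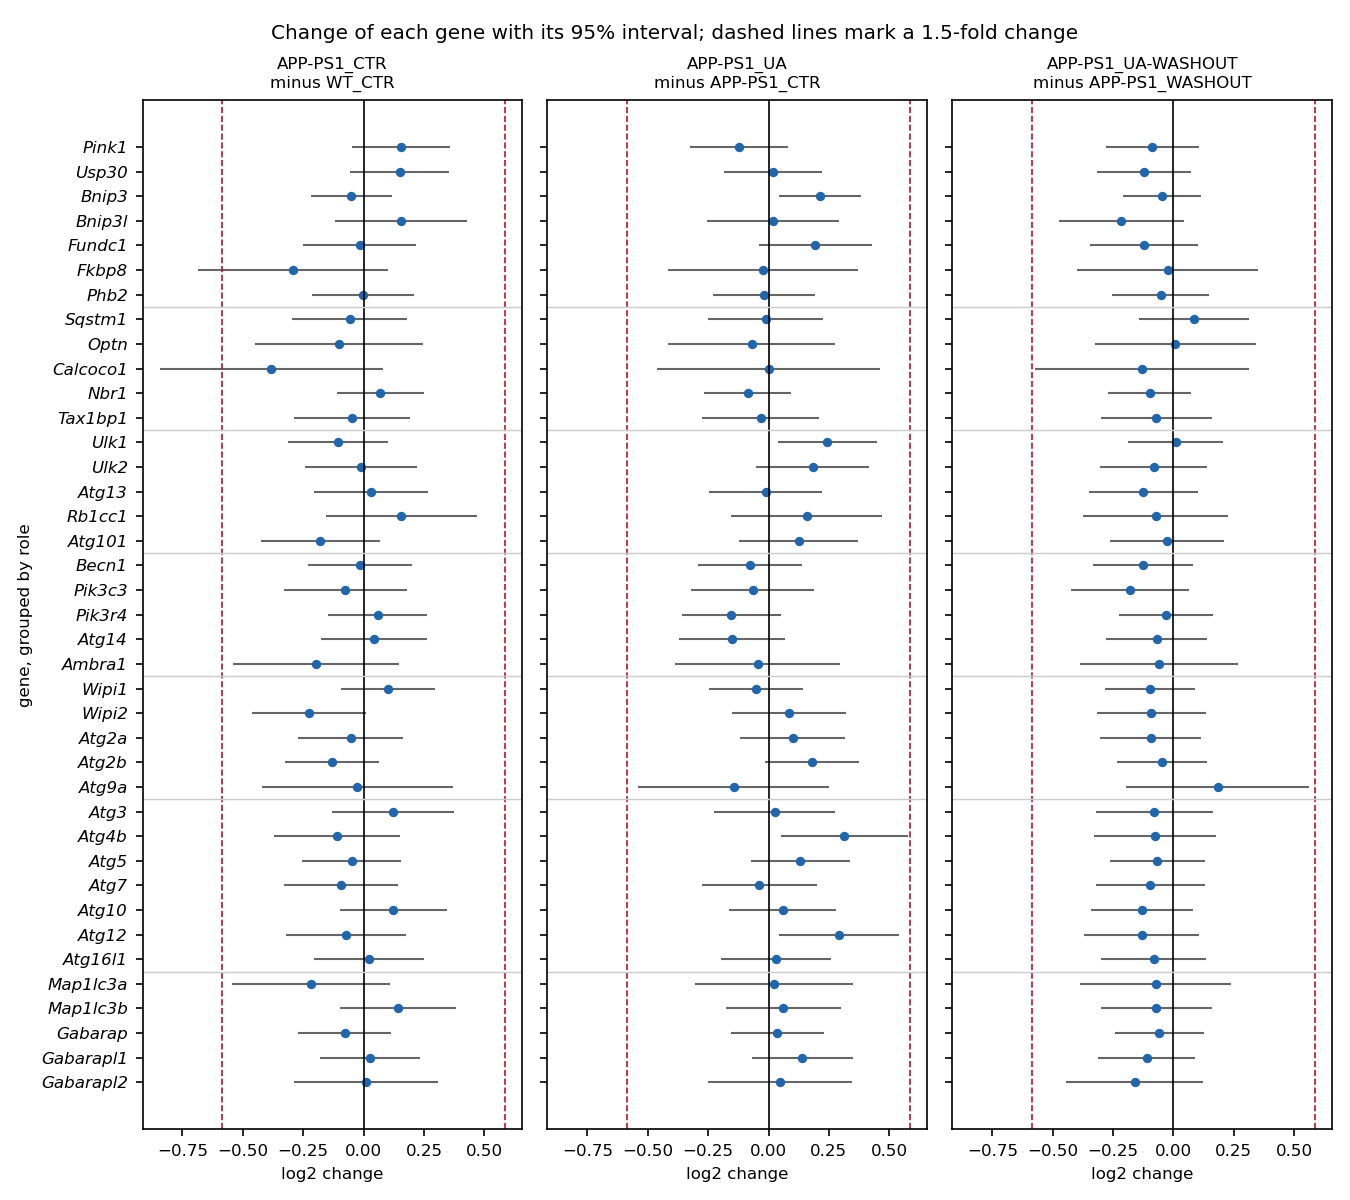
Log2 change (points) with its 95% interval (lines) for the 39 genes, grouped by role, in the transgene contrast at the end of treatment (left) and in the urolithin A contrasts at the end of treatment (middle) and after washout (right). Dashed lines mark a 1.5-fold change, and all 39 intervals lie inside them in both urolithin A panels and 37 do in the left panel.

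The second question is whether treated and untreated transgenic mice differed after the washout. All 8 arrays of this comparison lay on slide 3, but 4 of the 5 treated arrays filled the other array row. Spots well above background made up 73.8% to 76.9% in the untreated arrays. In the treated arrays they made up 63.7% to 74.8%, and the part of this difference in the values was not tested. Between APP-PS1_UA-WASHOUT and APP-PS1_WASHOUT 0 of the 39 genes were called by limma, beside 23 of all features (0.0652%). At an unadjusted p under 0.05 there were 0 of the 39, against 7.65% of all features, and 0 genes had groups that did not overlap, against 5.57%. The changes ran from -0.22 for Bnip3l to 0.18 for Atg9a, and all 39 intervals again lay within a 1.5-fold change, with a median distance to either bound of 0.22.

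Bnip3l, a mitochondrial receptor related to Bnip3 that maturing red blood cells use to discard mitochondria, had the smallest p of the 39. It was at 3.72, 3.73, 3.98, 3.82 and 3.80 in APP-PS1_UA-WASHOUT and at 3.77, 4.11 and 4.19 in APP-PS1_WASHOUT. The groups overlapped through the first untreated array, and the change of -0.22 ± 0.12 (SE) was not called (limma adjusted p = 0.721). It moved with single arrays, to -0.34 without that array and to -0.13 without the third untreated one. Pik3c3, the lipid kinase itself, was at -0.19, -0.35, -0.42, -0.07 and -0.49 in treated and at -0.09, -0.16 and -0.13 in untreated mice. Its change was -0.18 ± 0.12 (SE, limma adjusted p = 0.761), and the 4th treated array was above all untreated ones. Usp30, the deubiquitinase of the outer mitochondrial membrane that opposes mitophagy, was at 2.28, 2.45, 2.48, 2.46 and 2.39 in treated and at 2.38, 2.56 and 2.66 in untreated mice (-0.12 ± 0.09, SE, limma adjusted p = 0.809), and its value ran from -0.20 to -0.06 when the first or the third untreated array was left out.

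Small differences below 0 were common here. In 35 of 39 genes the change was below 0, and the median was -0.08, beside -0.02 over all features. Relative to the median of all features, 4 of the 39 genes lay above it on this scale, with the array median (members' median -0.15 beside -0.09) and with normexp (-0.08 beside -0.002). With quantile normalization 14 did (-0.04 beside -0.03), and in the deposited score 33 did (0.003 beside -0.016 score units), so no direction is read from it. By role the medians lay between -0.09 and -0.07 in all 7 groups, and 0 genes of any group were called.

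The difference between these urolithin A effects was tested as an interaction, washout minus end of treatment. Of the 39 genes 0 were called, beside 3 of all features (0.00851%), and 3 had an unadjusted p under 0.05 (7.69%, against 10.1% of all features). These were Atg12 at -0.42 ± 0.16 (SE, limma adjusted p = 0.401), Atg4b at -0.39 ± 0.17 (SE, limma adjusted p = 0.461) and Bnip3 at -0.26 ± 0.11 (SE, limma adjusted p = 0.452). The treated-minus-untreated value at the end of treatment and after the washout was 0.29 and -0.13 for Atg12, 0.31 and -0.08 for Atg4b, and 0.21 and -0.05 for Bnip3. The interval lay within a 1.5-fold change for 30 of the 39 genes.

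The third question is what the transgenes changed in untreated mice. At the end of treatment 0 of the 39 genes were called between APP-PS1_CTR and WT_CTR, beside 60 of all features (0.170%), and 0 had an unadjusted p under 0.05, against 6.47% of all features. Both groups lay on slide 1, with WT_CTR in array row 1 and APP-PS1_CTR in array row 2. Within these groups transgene and array row cannot be told apart. Groups that did not overlap were found for 0 of the 39 genes and for 8.73% of all features. Changes ran from -0.38 for Calcoco1 to 0.16 for Pink1, and 37 of 39 intervals lay within a 1.5-fold change. Markers of plaque-associated microglia were higher in the same mice, with 4 of 8 called and mean levels of -0.25 to -0.03 in APP-PS1_CTR and of -2.48 to -2.01 in WT_CTR. Among them Cst7 differed by 5.92 ± 0.36 (SE, limma adjusted p = 1.65e-08).

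Wipi2, which binds the lipid made by the PI3-kinase complex and recruits the LC3 conjugation enzymes, had the smallest p of the 39. It was at 1.08, 1.15 and 1.10 in APP-PS1_CTR and at 1.55, 1.34, 1.07 and 1.38 in WT_CTR. The third WT_CTR array was level with the transgenic ones, and the change was -0.22 ± 0.11 (SE, limma adjusted p = 0.773). Calcoco1, a receptor of endoplasmic reticulum cargo, was at -1.47, -1.30 and -1.27 in APP-PS1_CTR and at -0.29, -1.46, -1.26 and -0.84 in WT_CTR. Its change of -0.38 ± 0.22 (SE, limma adjusted p = 0.802) went with a wide spread in WT_CTR, and it was -0.16 without the first WT_CTR array and -0.55 without the second. Pink1 was at 5.04, 4.80 and 4.82 in APP-PS1_CTR and at 4.66, 4.83, 4.70 and 4.73 in WT_CTR (0.16 ± 0.10, SE, limma adjusted p = 0.812), and without the first transgenic array its change was 0.08.

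After the washout 9 of the 39 genes (23.1%) were called between APP-PS1_WASHOUT and WT_WASHOUT, beside 27.5% of all features, so their share was not above the background. At an unadjusted p under 0.05 there were 13 (33.3%, against 37.9% of all features), and in 9 genes (23.1%, against 31.0%) the arrays of the groups did not overlap. Higher in APP-PS1_WASHOUT were Nbr1, Wipi2, Usp30 and Ambra1 (4 of 39, 10.3%, against 19.8% of all features). Lower were Bnip3, Phb2, Fundc1, Atg9a and Pik3r4 (5 of 39, 12.8%, against 7.71%). The 2 groups lay wholly on different slides, 3 and 2, so transgene and slide cannot be told apart in any of these values. Array row moved with the comparison too. All APP-PS1_WASHOUT arrays lay in array row 1, and all WT_WASHOUT arrays but the first lay in array row 2. With the array row as a block Wipi2, Ambra1, Fundc1 and Pik3r4 lost their calls. The median change of the 39 genes was 0.02, beside 0.07 over all features. With the array median as the scale the median of all features was -0.15 in place of 0.07, and then 1 gene was called higher and 12 lower. The split was 4 and 6 with quantile normalization and 3 and 7 with the deposited score.

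Among the mitophagy receptors and regulators 3 of 7 were lower and 1 was higher. Bnip3 was at 3.98, 4.14 and 4.16 in APP-PS1_WASHOUT and at 4.41, 4.28, 4.45, 4.46 and 4.41 in WT_WASHOUT. All 3 transgenic arrays were below all 5 others, and the change was -0.31 ± 0.08 (SE), a fold of 0.807 (limma adjusted p = 0.00493). Phb2, prohibitin 2 of the inner mitochondrial membrane, which binds LC3 once the outer membrane is broken, was at 2.20, 2.13 and 2.28 in APP-PS1_WASHOUT and at 2.63, 2.41, 2.47, 2.75 and 2.59 in WT_WASHOUT. The groups did not overlap, and the change was -0.36 ± 0.10 (SE, limma adjusted p = 0.00753). Fundc1, another LC3-binding protein of the outer membrane, was at 2.10, 2.08 and 2.40 in APP-PS1_WASHOUT and at 2.40, 2.36, 2.49, 2.55 and 2.67 in WT_WASHOUT. The third transgenic array lay within the other group, and the change was -0.30 ± 0.11 (SE, limma adjusted p = 0.0425). Leaving out 1 of 5 arrays, transgenic replicates 1 and 2 or WT_WASHOUT replicates 3 to 5, ended the call (limma adjusted p 0.0601 to 0.183). Usp30 was at 2.38, 2.56 and 2.66 in APP-PS1_WASHOUT and at 2.07, 2.21, 2.29, 2.20 and 2.39 in WT_WASHOUT. It was higher by 0.30 ± 0.09 (SE, limma adjusted p = 0.0199), with 1 transgenic array inside the range of the other group. Without transgenic replicate 2 or 3 its adjusted p was 0.0703 or 0.119 (limma). With the array median as the scale the change of Usp30 was 0.08 (limma adjusted p = 0.654). Its call was also lost with the deposited score and with only the groups compared. The other 3, Pink1, Bnip3l and Fkbp8, were not called.

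Among the 5 cargo receptors Nbr1 was called. Nbr1, which gathers ubiquitinated proteins and peroxisomes, was at -1.27, -1.38 and -1.44 in APP-PS1_WASHOUT and at -1.77, -1.89, -1.93, -1.86 and -1.78 in WT_WASHOUT. The groups were separated by more than the range of either, and the change of 0.48 ± 0.08 (SE), a fold of 1.40, had the smallest p of the 39 genes (limma adjusted p = 0.000158). Calcoco1 differed by a similar 0.48 but with an SE of 0.21 and was not called (limma adjusted p = 0.103). The other 3 receptors, Sqstm1, Optn and Tax1bp1, were not called either, and Sqstm1, which encodes p62, differed by 0.004.

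Among the 5 genes grouped with the class III PI3-kinase complex 1 was higher and 1 lower. Ambra1, a scaffold that ties BECN1 to ubiquitin ligases, was at 2.53, 2.51 and 2.39 in APP-PS1_WASHOUT and at 2.47, 2.16, 2.08, 2.06 and 1.38 in WT_WASHOUT. Its change was 0.45 ± 0.16 (SE, limma adjusted p = 0.0397), and 1 WT_WASHOUT array, at 1.38, was far below the rest while another lay among the transgenic values. Without the array at 1.38 the change was 0.28 (limma adjusted p = 0.0663), and the call was lost in 12 of 20 alternatives, among them normexp (0.44, limma adjusted p = 0.0522) and the array median (0.22, limma adjusted p = 0.242). Pik3r4, the regulatory subunit VPS15, was at 1.12, 1.20 and 1.23 in APP-PS1_WASHOUT and at 1.35, 1.48, 1.30, 1.55 and 1.57 in WT_WASHOUT. The groups did not overlap, and it was lower by 0.27 (-0.27 ± 0.09, SE, limma adjusted p = 0.0370). The call was lost in 11 of 20 alternatives, among them normexp (limma adjusted p = 0.067) and the omission of any 1 transgenic array (limma adjusted p 0.0633 to 0.129). Becn1, Pik3c3 and Atg14 were not called.

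Of the 5 genes of membrane recruitment and lipid transfer 1 was higher and 1 lower. Wipi2 was at 1.70, 1.67 and 1.495 in APP-PS1_WASHOUT and at 1.41, 1.29, 1.12, 1.21 and 1.01 in WT_WASHOUT. All transgenic arrays stood above all others, with a change of 0.42 ± 0.11 (SE, limma adjusted p = 0.00658). With the array median as the scale the change was 0.19 (limma adjusted p = 0.18), and the call was also lost with the array row as a block. Atg9a, the lipid scramblase of the vesicles that seed the autophagosome, was at -0.01, -0.05 and -0.56 in APP-PS1_WASHOUT and at 0.71, 0.49, 0.41, 0.62 and 0.34 in WT_WASHOUT. It had the largest change of the 39, -0.72 ± 0.18 (SE), a fold of 0.608 (limma adjusted p = 0.00536), and part of that size came from the third transgenic array. Without it the change was -0.54, and the adjusted p was 0.0555.

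In the ULK complex, the conjugation machinery and the LC3 and GABARAP genes 0 of 5, 0 of 7 and 0 of 5 were called. For the chosen probes their changes ran from -0.31 (Rb1cc1, the FIP200 scaffold) to 0.22 (Map1lc3b, the LC3 form used as the usual marker of autophagosomes). Other probes went beyond this range. A second probe gave 0.48 for Ulk1, whose chosen probe gave -0.08, and 0.26 for Gabarapl1. The 6 probes of Rb1cc1 ran from -0.43 to 0.14. For all 9 called genes, 3 of 3 transgenic arrays lay on the stated side of the WT_WASHOUT mean. The genes were picked by their difference on these same arrays, so this adds no evidence. Genes that were not called, among them Pink1, Optn and Calcoco1, showed it too.

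**Figure D3:**
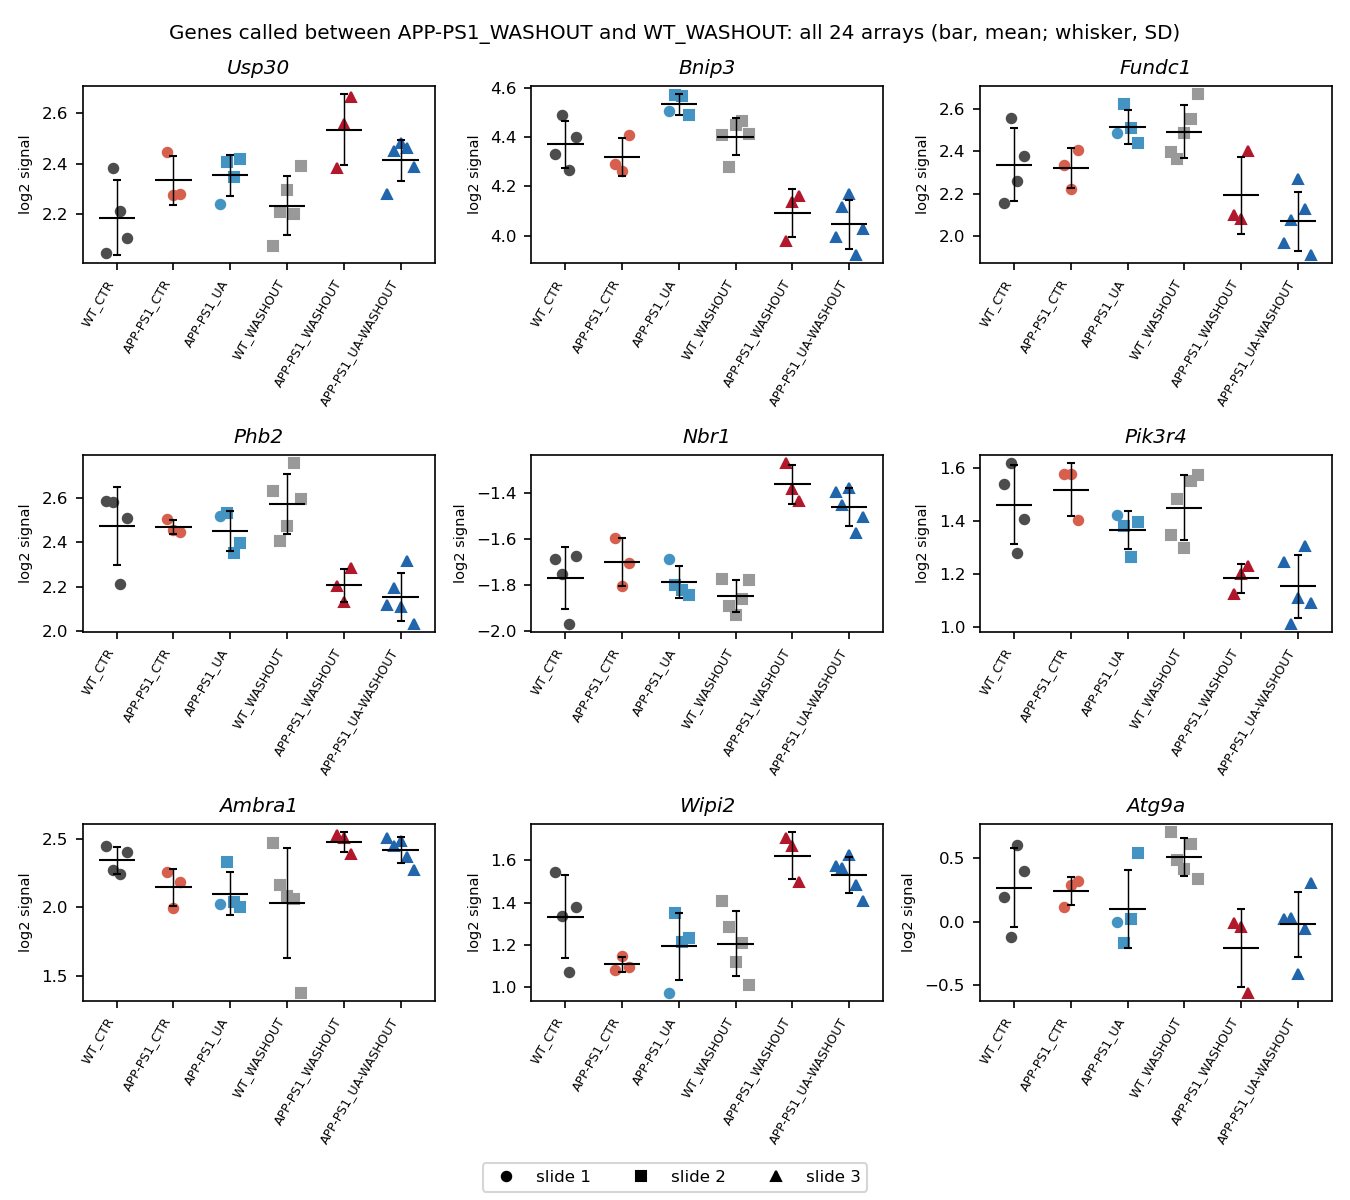
Log2 signal relative to the array's 75th percentile of the 9 genes called between APP-PS1_WASHOUT and WT_WASHOUT, in all 24 arrays, with a bar for the group mean and a whisker for the SD. Marker shape gives the slide, and both groups on slide 3 (triangles) sit together, for Bnip3 below and for Nbr1 above every other array.

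Both transgenic washout groups lay on slide 3. Over all 39 genes, 1 (Nbr1) was higher on every slide 3 array than on every array of slides 1 and 2, and 1 (Bnip3) was lower. That is 5.13% of the genes, against 12.1% of all features. Nbr1 ran from -1.58 to -1.27 on slide 3 and from -1.97 to -1.60 on slides 1 and 2. Bnip3 ran from 3.92 to 4.17 on slide 3 and from 4.26 to 4.57 on slides 1 and 2.

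Transgenic and non-transgenic mice met on 1 slide other than slide 1, since slide 2 held 3 APP-PS1_UA arrays and all of WT_WASHOUT. That comparison, chosen after the data had been seen, also differs in treatment and age. In it 0 of the 39 genes were called, beside 6 of all features (0.0170%), and 0 had an unadjusted p under 0.05, against 5.06%. It shares the WT_WASHOUT arrays with the washout contrast, so the values for the 9 genes are only set side by side, and the smallest adjusted p was 0.977. Atg9a differed by -0.38 ± 0.18 (SE, limma; -0.72 in the washout contrast), with arrays from -0.17 to 0.54 in APP-PS1_UA and from 0.34 to 0.71 in WT_WASHOUT. Nbr1 differed by 0.03 ± 0.09 (SE, limma), where the contrast between slides gave 0.48. Wipi2 was at 0.06 (0.42), Ambra1 at 0.09 (0.45) and Usp30 at 0.16 (0.30), with the washout value in brackets. Likewise Phb2 was at -0.14 (-0.36) and Pik3r4 at -0.10 (-0.27). Bnip3 and Fundc1 were at 0.14 ± 0.09 and 0.03 ± 0.11 (SE, limma), above 0, where the washout contrast gave -0.31 and -0.30.

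**Figure D4:**
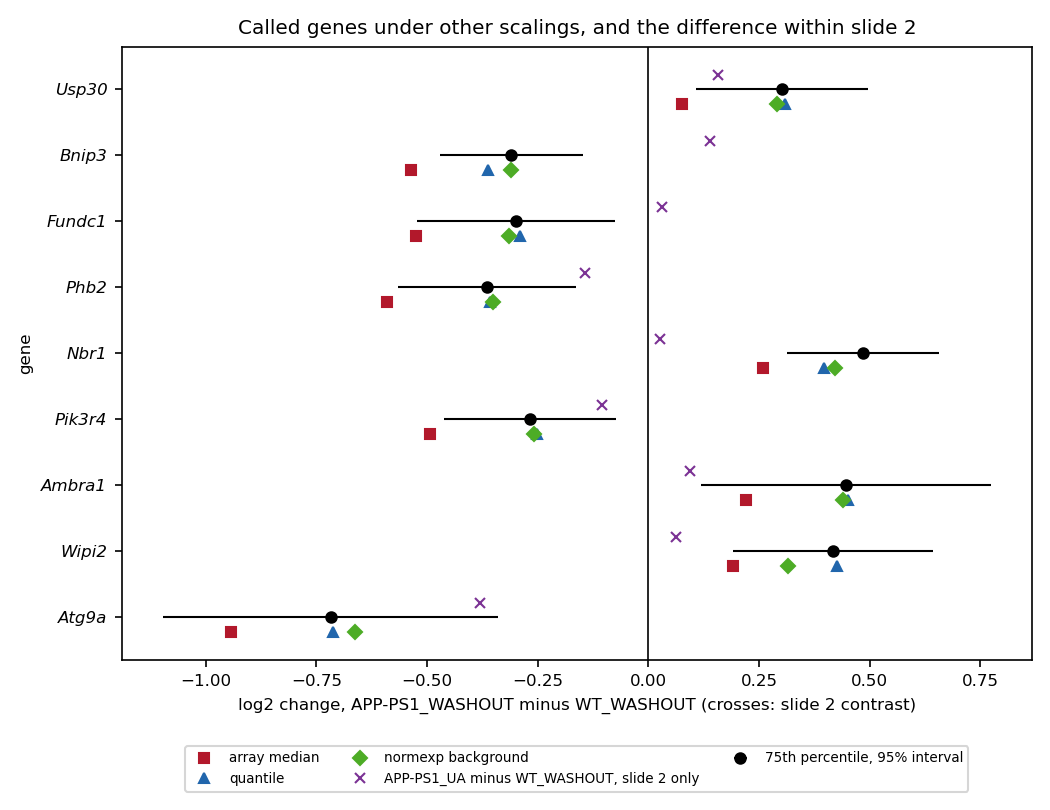
Log2 change of the 9 called genes between APP-PS1_WASHOUT and WT_WASHOUT with the main scale (black points, 95% interval), with the array median, quantile normalization or normexp background correction (coloured markers), and, as crosses, the change between APP-PS1_UA and WT_WASHOUT within slide 2. The array median moves all 9 genes down by about the same amount, and the crosses run from -0.38 for Atg9a to 0.16 for Usp30.

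The contrast of APP-PS1_UA-WASHOUT with WT_WASHOUT shares its control arrays and its slides with the one before, so its calls are no separate evidence. Of the 39 genes 14 (35.9%) were called, beside 36.3% of all features, 3 higher (7.69%, against 23.0%) and 11 lower (28.2%, against 13.4%). An unadjusted p under 0.05 was reached by 16 (41.0%, against 45.1%), and the groups did not overlap in 8 (20.5%, against 24.9%). With the array median as the scale 0 were higher and 28 lower, with quantile normalization 4 and 13, and with the deposited score 8 and 10, as the median of all features moved from 0.03 to -0.26 with the first of these. Higher were Nbr1, Wipi2 and Ambra1, and lower were Bnip3, Bnip3l, Phb2, Fundc1, Pik3r4, Atg9a, Atg10, Wipi1, Rb1cc1, Atg12 and Atg3. Nbr1 differed by 0.39 ± 0.07 and Bnip3 by -0.36 ± 0.07 (SE, limma adjusted p = 0.000219 and 0.000271). Usp30, at 0.18 ± 0.08, was not called (SE, limma adjusted p = 0.0890). In the deposited score Nbr1 stood at -0.004 score units.

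The treated arrays held these levels. Nbr1 was at -1.39, -1.45, -1.38, -1.57 and -1.51, and Bnip3 at 3.99, 4.11, 4.17, 3.92 and 4.03. Wipi2 was at 1.57, 1.56, 1.62, 1.48 and 1.41, and Ambra1 at 2.51, 2.44, 2.48, 2.37 and 2.27. Nbr1 lay above and Bnip3 below every WT_WASHOUT array, and the lowest Wipi2 array was level with the highest of WT_WASHOUT. Phb2 was at 2.12, 2.19, 2.11, 2.31 and 2.03, Fundc1 at 1.97, 2.08, 2.27, 2.13 and 1.91, Pik3r4 at 1.24, 1.01, 1.11, 1.30 and 1.09, and Atg9a at 0.02, 0.03, -0.41, -0.06 and 0.30. Ambra1 was not called without the WT_WASHOUT array at 1.38 (0.22, limma adjusted p = 0.0853). Phb2, Fundc1, Pik3r4 and Atg9a each had a lower mean than in WT_WASHOUT, and Pik3r4 overlapped with it through the array at 1.30.

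Genes lower here and not yet given by array were Atg10 and Atg3, the E2-like enzymes that pass on ATG12 and LC3, Atg12 itself, the PI3P-binding Wipi1, the scaffold Rb1cc1 and the receptor Bnip3l. Atg10 was at -0.58, -0.58, -0.44, -0.70 and -0.85 in APP-PS1_UA-WASHOUT and at -0.35, -0.37, -0.24, -0.33 and -0.15 in WT_WASHOUT (-0.35 ± 0.09, SE, limma adjusted p = 0.00387). Wipi1 was at 2.21, 2.27, 2.34, 2.38 and 2.38 and at 2.48, 2.50, 2.63, 2.55 and 2.68 (-0.25 ± 0.08, SE, limma adjusted p = 0.0149). In Atg10 and Wipi1 the groups did not overlap, but a second probe of each gene gave the opposite sign, 0.31 for Atg10 and 0.22 for Wipi1.

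Rb1cc1 was at 1.96, 2.28, 2.42, 1.92 and 2.41 in APP-PS1_UA-WASHOUT and at 2.30, 2.74, 2.67, 2.50 and 2.73 in WT_WASHOUT (-0.39 ± 0.12, SE, limma adjusted p = 0.0191). Its 6 probes ran from -0.52 to 0.05. Atg12 was at 3.17, 3.43, 3.58, 3.34 and 3.47 and at 3.40, 3.82, 3.69, 3.67 and 3.84 (-0.29 ± 0.10, SE, limma adjusted p = 0.0271). Atg3 was at 2.59, 2.62, 2.66, 2.70 and 2.61 and at 2.61, 2.83, 3.05, 2.89 and 3.20 (-0.28 ± 0.10, SE, limma adjusted p = 0.0322). Bnip3l was at 3.69, 4.13, 4.14, 4.18 and 4.29 in WT_WASHOUT (-0.28 ± 0.11, SE, limma adjusted p = 0.0498), the call closest to the threshold, which held in 10 of 22 alternatives. The calls of Atg3, Atg12 and Rb1cc1 held in 15, 16 and 17 of 22. In these last 4 genes the groups overlapped, in each case with the first WT_WASHOUT array the lowest of its group.

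Whether the transgene contrast differed between the stages was tested as an interaction. It called 2 of the 39 genes (5.13%), beside 14.3% of all features, both higher after washout (against 11.6% of all features). They were Wipi2 at 0.64 ± 0.16 (SE, limma adjusted p = 0.00848) and Nbr1 at 0.42 ± 0.12 (SE, limma adjusted p = 0.0225). For Wipi2 the value at the end of treatment was -0.22, which was not called, and that after washout was 0.42. Nbr1 lost its call with normexp (0.30, limma adjusted p = 0.136), quantile normalization (0.32, limma adjusted p = 0.0915) and the array median (0.15, limma adjusted p = 0.461), and Wipi2 lost it with the array median (0.37, limma adjusted p = 0.0999). With the array median as the scale 0 genes were called higher and 9 lower, with quantile normalization 1 and 0, and with the deposited score 1 and 3. Here too the washout side of the contrast lay between slides. With the array row as a block 0 of the 39 were called.

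The remaining comparisons called 0 of the 39 genes. Between APP-PS1_UA and WT_CTR 22 of all features (0.0624%) were called, and 2 of the 39 genes had an unadjusted p under 0.05 (5.13%, against 6.19% of all features), Bnip3 at 0.16 ± 0.08 and Rb1cc1 at 0.31 ± 0.14 (SE, limma adjusted p = 0.782 for both). Between the non-transgenic groups WT_WASHOUT and WT_CTR, which lay on slides 2 and 1, 6 of all features (0.0170%) were called. Of the 39 genes 2 had an unadjusted p under 0.05 (5.13%, against 8.28%), Optn at -0.40 ± 0.15 and Ambra1 at -0.31 ± 0.14 (SE, limma adjusted p = 0.488 and 0.592). Optn encodes optineurin, a receptor for ubiquitinated mitochondria.

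Several probes allowed a check within genes. Of the 39 genes 21 had 1 probe and 18 had several, 63 probes in all. Between APP-PS1_WASHOUT and WT_WASHOUT 12 of the 24 other probes had the sign of the chosen one. Of the 9 called genes 8 had 1 probe, and the other, Nbr1, had a second probe with the same sign. Between APP-PS1_CTR and WT_CTR 19 of the 24 had the sign of the chosen one, and between APP-PS1_UA and APP-PS1_CTR 14 did.

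**Figure D5:**
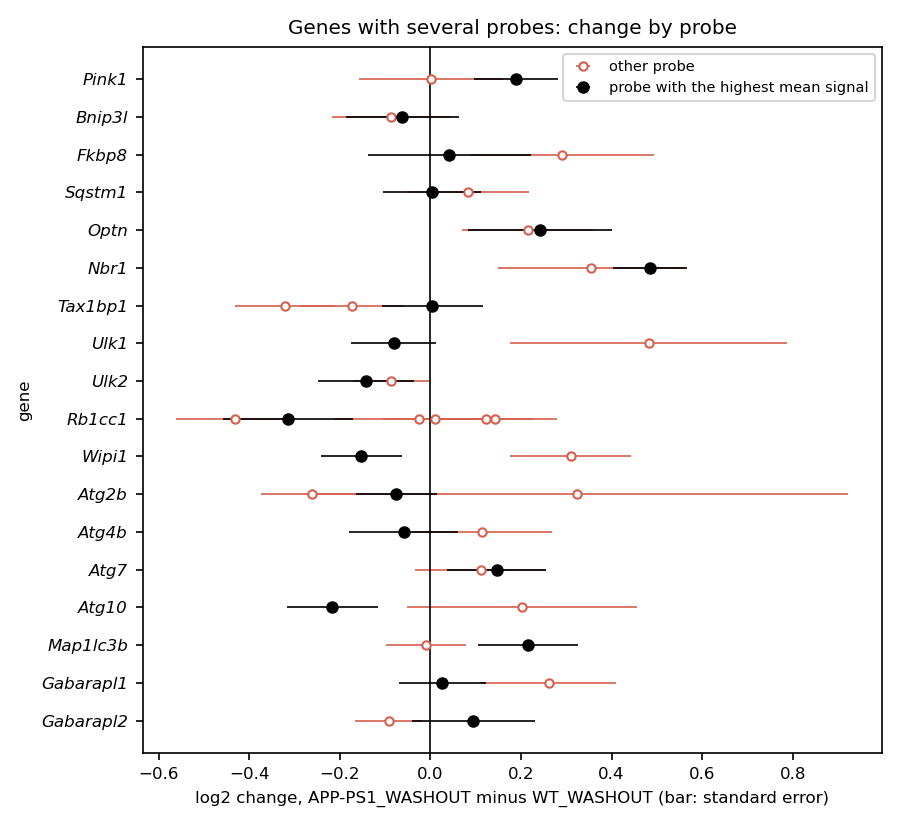
Log2 change between APP-PS1_WASHOUT and WT_WASHOUT for each probe of the 18 genes with several probes, with the chosen probe filled, the others open and bars for the SE. The other probe is on the same side of 0 for 12 of 24 probes, and Nbr1 has both probes above 0.

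Further genes of the pathway were taken from 3 lists. Of 26 regulators and transcription factors, of 33 measured genes of autophagosome formation and fusion, and of 35 other mitophagy genes, 0 were called by limma in either urolithin A contrast or in the transgene contrast at the end of treatment, and 0 to 5 genes of a list had an unadjusted p under 0.05 there. The 5 were other mitophagy genes between APP-PS1_UA and APP-PS1_CTR (14.3% of that list, against 7.44% of all features). Between APP-PS1_WASHOUT and WT_WASHOUT the regulators had 1 gene higher and 1 lower (7.69% called, median change -0.09). They were Sesn2, a stress-induced inhibitor of mTORC1, at 0.56 ± 0.14, and Rictor, the defining subunit of mTORC2, at -0.53 ± 0.11 (SE, limma adjusted p = 0.00461 and 0.000905). The autophagosome and fusion genes had 2 higher and 4 lower (18.2% called, median -0.05). Stx17, the syntaxin that fuses autophagosomes with lysosomes, differed by 1.03 ± 0.15 (SE, limma adjusted p = 3.15e-05), more than any of the 39 genes. Ei24 was also higher (0.33 ± 0.09), and Epg5, a tether for that fusion, and Rab7, the late endosomal GTPase, were lower (-0.40 ± 0.07 and -0.29 ± 0.08; SE, limma adjusted p = 0.00926, 0.000282 and 0.00823). The other mitophagy genes had 2 higher and 6 lower (22.9% called, median -0.03), with Fbxl4, which restrains mitophagy through Bnip3 and Bnip3l, at -0.39 ± 0.10 and the deubiquitinase Usp15 at -0.37 ± 0.12 (SE, limma adjusted p = 0.00772 and 0.0210). These 3 shares stand beside 27.5% of all features, and the same slides were compared. Between APP-PS1_UA-WASHOUT and WT_WASHOUT the shares called were 42.3% of the regulators (2 higher, 9 lower), 30.3% of the autophagosome and fusion genes (2 higher, 8 lower) and 34.3% of the other mitophagy genes (2 higher, 10 lower), beside 36.3% of all features.

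Markers of several cell types were called in the contrast of APP-PS1_WASHOUT with WT_WASHOUT, in which transgene and slide cannot be told apart. Among all features 27.5% were called there, 19.8% higher and 7.71% lower. Of 12 microglial markers 10 were higher in APP-PS1_WASHOUT, with a mean level of 2.47 to 2.95 against 1.88 to 2.15 in WT_WASHOUT, and 6 of 8 markers of plaque-associated microglia were higher. Of 7 endothelial markers 2 were lower, with a mean level of 0.28 to 0.32 against 0.45 to 0.65. Of 10 neuronal markers 2 were higher and 1 lower, and their mean level overlapped (4.40 to 4.62 against 4.43 to 4.65), although Snap25 alone did not (6.10 to 6.43 against 5.33 to 5.81). Of 10 markers of striatum, thalamus and cortex 1 was higher and 1 lower. Both microglial lists thus had a larger share called than all features, with 83.3% of the 12 microglial markers. The shares of the endothelial (28.6%), neuronal (30.0%) and regional markers (20.0%) were near that of all features, although both endothelial calls were lower. The part of these cell types in the values of the 39 genes was not tested. Between treated and untreated transgenic mice 0 markers of any list were called by limma at either stage. The 12 choroid plexus markers, though not called, had changes from -3.61 to -1.15 at the end of treatment. Their mean level spread from -3.13 to 3.31 in APP-PS1_UA and from 0.86 to 2.68 in APP-PS1_CTR. At the end of treatment 3 of 8 astrocyte and 3 of 9 oligodendrocyte markers had an unadjusted p under 0.05. These were 37.5% and 33.3% of their lists, against 7.44% of all features. After the washout 2 of the 10 markers of striatum, thalamus and cortex did (20.0%, against 7.65%). All other counts were 0 or 1 per list, both microglial lists among them.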

How the data were processed

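Scanner files as deposited give linear spot intensities; per the file headers, Feature Extraction 12.0.3.1 was used. The processed signal had its background subtracted array by array but was not normalized across arrays. A score makes up the deposited series matrix, in which an array's log signals are centred on 0 and scaled to an SD of 1 (largest gap 0.005, column medians -0.17 to -0.06), whose log base cannot be told.

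From these deposited intensities log2 values were computed here without flagged spots, averaged per probe, minus each array's 75th percentile. Probes well above background on at least 3 arrays (43988 of 56605) with 2 unflagged values per group were kept, and the one with the highest mean signal stood for a gene. R 4.3.3 and limma 3.58.1 (lmFit, contrasts.fit, eBayes) fitted 6 group means to 24 arrays and 9 contrasts. Data were simulated for APP-PS1_CTR against WT_CTR over 35259 features, with the changed ones drawn from all of them. The fit recovered 17.9%, 50.7% and 78.8% of features changed by 0.5, 1 and 2 on the log2 scale. These rates are not specific to the 39 genes. Tables and plots were made in Python 3.11.15 with pandas 2.3.3 and matplotlib 3.10.9.

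The 39 genes and the other lists were chosen with earlier results of these data known. Genes with a call in any contrast, or among the 3 smallest p-values of the first 4, are given array by array; Atg12 at the end of treatment was added after its values were seen. Further genes of a list are the called ones with the smallest adjusted p, up to 4 per contrast. The normexp alternative (offset 50) used median spot signals in place of mean signals. Replicate numbers in the titles differ from the animal numbers in the descriptions, and same-numbered arrays did not deviate together (median r 0.01). P-values measure the spread between these animals, and not between slides. The array headers name an older build than GRCm38.p6, so coordinates belong to the RefSeq promoter table alone.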

Additional observations from a re-analysis of the deposited data

Results flagged for a closer look

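In 9 of 156 combinations of a gene and a group of 4 or 5 arrays, 1 array stood far from the others of its group; chance gives this in about 1 of 20. These were Bnip3l in WT_WASHOUT replicate 1 (3.69), Ulk2 in WT_CTR replicate 1 (-0.64) and in WT_WASHOUT replicate 1 (-0.64), and Becn1 in WT_CTR replicate 3 (0.36). In APP-PS1_UA they were Pik3c3 and Ambra1 in replicate 2 (0.03 and 2.33) and Atg14 and Gabarapl2 in replicate 4 (0.40 and 4.39). The last was Atg10 in WT_CTR replicate 2 (-0.06). The transgene contrast differed between the stages, by the interaction test, for Wipi2 (0.64) and Nbr1 (0.42), with its washout side lying between slides. Both calls were lost with the array row as a block or the array median as scale, and that of Nbr1 also with normexp or quantile normalization.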

How the results depend on the processing

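The count of called genes stayed at 0 under every alternative run in both urolithin A contrasts, their difference, and the contrasts of APP-PS1_CTR and APP-PS1_UA with WT_CTR and of WT_WASHOUT with WT_CTR. Between APP-PS1_WASHOUT and WT_WASHOUT the 9 calls became 4 with only the groups compared, and 5 to 11 when 1 replicate was left out (5 without APP-PS1_WASHOUT replicate 2 or 3). Between APP-PS1_UA-WASHOUT and WT_WASHOUT the 14 became 28 with the array median as scale, 9 with only the groups compared, and 9 to 17 when 1 replicate was left out (9 without APP-PS1_UA-WASHOUT replicate 1). For the difference of the transgene contrast between stages, the 2 calls became 1 with normexp, quantile normalization, the mean of all probes or only the groups compared, 4 with the deposited score or slide as a random block, 7 with array weights, 9 with the array median and 0 with array row as a block. They ranged from 1 to 4 when 1 replicate was left out: 1 without APP-PS1_CTR replicate 2 or APP-PS1_WASHOUT replicate 1, and 4 without WT_CTR replicate 2 or 3 or WT_WASHOUT replicate 1. The cause of these moves was not tested. Nbr1 between APP-PS1_UA-WASHOUT and WT_WASHOUT reversed to -0.004 in the deposited score.

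Between APP-PS1_WASHOUT and WT_WASHOUT, Nbr1 and Phb2 held their call in 20 of 20 alternatives, Bnip3, Atg9a and Wipi2 in 18 or 19, Usp30 in 15, Fundc1 in 11, Pik3r4 in 9 and Ambra1 in 8. Between APP-PS1_UA-WASHOUT and WT_WASHOUT, Phb2, Fundc1, Pik3r4 and Atg9a held it in 22 of 22. There Bnip3, Atg10 and Wipi1 held it in 21, Nbr1 and Wipi2 in 20 and Ambra1 in 16. Replicate numbers did not pair the animals; with the replicate block the counts in the 3 contrasts with calls were 6, 16 and 3, and 0 in the others. Slide as a fixed block could not be fitted for those 3 contrasts, because the groups share no slide.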
